A study of Mus musculus with 18 samples.

Results

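The 10 antioxidant defence transcripts followed here were chosen by name, as the RefSeq rows of Sod1 (NM_011434), Sod2 (NM_013671), Cat (NM_009804), Gpx1 (NM_008160), Gpx4 (NM_008162), Prdx1 (NM_011034), Prdx2 (NM_011563), Txn1 (NM_011660), Gclc (NM_010295) and Nfe2l2 (NM_010902). All 10 had a row among the 26823 transcripts counted in each embryo. RNA sequencing was made from 18 single mouse embryos at the 2-cell stage, 9 with a wild-type father (WT embryos) and 9 with a Parg(110)-/- father (Parg(110) embryos). Each group had 3 fathers with 3 embryos per father. The WT fathers are numbered 1, 2 and 3 and the Parg(110)-/- fathers 6, 7 and 8, so that embryo 6-3 is the embryo numbered 3 of father 6. Fathers were of strain background 129SVE and were mated naturally to wild-type 129SVE females. Parg(110)-/- males carry a disrupted gene for poly(ADP-ribose) glycohydrolase, the enzyme that degrades poly(ADP-ribose), and both groups of embryos had a wild-type mother. The genotype label is that of the father, and no age of the fathers is given in the sources used here. The paper writes the offspring as Parg(110)-/+ embryos, so the embryo's own genotype differed together with the father's. Effects of the embryo's and of the father's genotype cannot be told apart here. The comparison asks whether levels of these transcripts in the embryo differed with the genotype of the father.

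Cells make superoxide and hydrogen peroxide as by-products of respiration, and layered enzymes remove them. Superoxide dismutases turn superoxide into hydrogen peroxide, which is then broken down by catalase, by glutathione peroxidases that spend glutathione, or by peroxiredoxins that are recharged by thioredoxin. The transcription factor NRF2, the product of Nfe2l2, turns on many of these genes, and KEAP1 marks it for degradation in unstressed cells. The 2-cell mouse embryo carries maternal transcripts stored in the oocyte and starts to transcribe its own genome, and sperm bring little cytoplasm with them.

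Totals per embryo were 2852858 to 13355161 counts for the WT group and 3560501 to 12497060 for the Parg(110) group, so that 1 count was worth 0.075 to 0.351 CPM, the share of a file's total count multiplied by 1e+06. CPM is thus relative to the counted RNA of 1 embryo, and a lower share cannot be told apart from more of other RNA. Median totals were 7594021 counts in WT and 7191377 in Parg(110) embryos. Transcripts with a count numbered 11823 to 16436 (median 13997) in WT and 12064 to 14047 (median 12678) in Parg(110) embryos. The part of this difference in the zeros and low values given below was not tested. Transcripts of stored oocyte genes (9 genes such as Zp3, Gdf9 and Npm2) summed to 1529 to 2970 CPM in WT and 1125 to 4471 CPM in Parg(110) embryos, and those of genes active at the 2-cell stage (6 of 7 listed, such as Zscan4d and Zfp352) to 23.8 to 99.3 and 13.8 to 106 CPM. Markers of cumulus and granulosa cells, which surround the egg, summed to at most 14.2 CPM in any embryo, and 5 of the 10 (Ptx3, Tnfaip6, Amh, Inha and Fshr) were at 0 in all. Cyp19a1 and Star were each counted in 10 embryos, Ptgs2 in 3, and Has2 and Lhcgr in 1 each. Sperm and spermatid markers reached at most 4.36 CPM, with Prm1, Tnp1, Tnp2 and Odf1 at 0 in all embryos. Of the others, Akap4 was counted in 3 embryos, Smcp in 2 and Prm2 in 1. The 2 of 3 blood markers with a row reached at most 1.58 CPM. Parg itself was measured at 32 to 138 CPM in WT and 25.2 to 77.3 CPM in Parg(110) embryos (log2 fold change -0.67 ± 0.34 SE, adjusted p = 0.872 by the quasi-likelihood test of edgeR), and with a wild-type maternal copy it does not check the labels.

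For none of the 10 transcripts did a difference between the groups pass the test. Tested on raw counts with the quasi-likelihood test of edgeR across the 15333 transcripts that reached 10 counts in 3 embryos or more, 0 of 10 had a Benjamini-Hochberg adjusted p-value below 0.1, where 0% of all transcripts passed. All 10 met the count filter, Txn1 through 3 Parg(110) embryos alone, and Cat through WT embryo 1-2 with 6-1 and 6-2. At an unadjusted p-value below 0.05 there was 1 of 10, Txn1, against 5.8% of all transcripts. DESeq2 called 0 of the 8 members for which it gave an adjusted p-value, against 0.248% of all transcripts, and limma-voom with the father as a random effect called 0, against 0% of all transcripts, with no member at an unadjusted p-value below 0.05. The estimated log2 fold change (Parg(110) over WT) was above 0 for 4 members and below 0 for 6, with a median of -0.21, and the median of all transcripts was -0.02. For no member were the groups apart, a pattern that 0.00652% of all transcripts showed. Differences of the mean CPM, permuted exactly over the 48620 assignments of embryos, gave two-sided p-values of 0.126 or more for every member. Those permutations treat the embryos of 1 father as independent. Permuted over the 6 father means, where no p-value can be below 0.1, the smallest was 0.2.

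**Figure D1:**
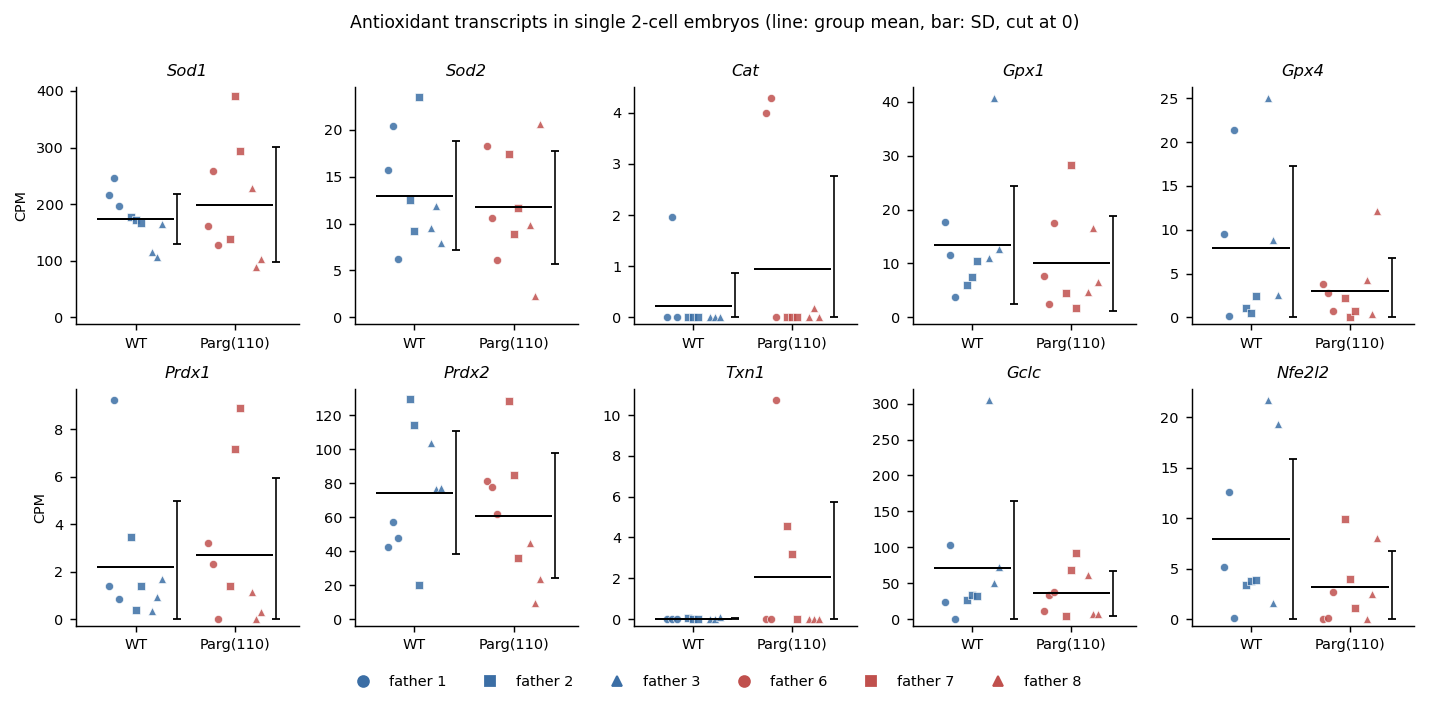
CPM of each antioxidant transcript in each of the 18 embryos, WT in blue and Parg(110) in red, with a symbol for each father, the group mean as a line and the SD (n = 9) as a bar that is cut at 0. The groups overlap in every panel, Sod1 and Prdx2 are present in every embryo, and Cat and Txn1 are at 0 in most.

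The superoxide dismutases were counted in every embryo. Sod1, the copper and zinc enzyme of the cytosol (chr16:90220987-90226567, plus strand, GENCODE vM1 on mm9), ranged from 106 to 247 CPM with a median of 172 CPM in WT embryos. It ranged from 88.0 to 391 CPM with a median of 162 CPM in Parg(110) embryos. Both the lowest and the highest embryo of all (8-2 and 7-2) were thus in the Parg(110) group. The means were 174 ± 44.3 CPM and 199 ± 101 CPM (SD, n = 9), and the log2 fold change was 0.20 ± 0.28 SE, with a 95% interval of -0.36 to 0.75 (edgeR, adjusted p = 0.978). Within the WT group the father means were 220, 172 and 129 CPM, and within the Parg(110) group they were 183, 275 and 140 CPM, so that fathers of 1 genotype lay as far apart as the groups or farther. Without embryo 7-2 the log2 fold change of Sod1 was -0.003 and without father 7 it was -0.12.

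Sod2, the manganese enzyme of mitochondria (chr17:13200705-13210985, plus strand), was at 6.20 to 23.5 CPM with a median of 11.8 CPM in WT embryos. It was at 2.27 to 20.6 CPM with a median of 10.6 CPM in Parg(110) embryos. The means of 12.97 ± 5.83 and 11.7 ± 6.00 CPM gave a log2 fold change of -0.13 ± 0.55 SE (95% interval -1.20 to 0.94, adjusted p = 1.00 by edgeR), which was 0.03 without embryo 2-3 and 0.00 without embryo 8-2. Sod2 was steady from embryo to embryo for its level. Its coefficient of variation over the 18 embryos was 46.8%, the median among the 4163 transcripts within 2-fold of its mean was 101%, and 1.13% of them had a lower one. The coefficient for Sod1 was 41.3%, close to the median of 44.2% for the 1456 transcripts near its level.

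Catalase, the peroxisomal enzyme that breaks down hydrogen peroxide without a partner, was barely counted. Cat (chr2:103294006-103325317, minus strand) had 14 counts in 1 WT embryo (1-2, 1.957 CPM) and 0 in the other 8. Among Parg(110) embryos it had 50 counts in 6-1 (4.001 CPM), 41 in 6-2 (4.28 CPM), 1 in 8-2 and 0 in the other 6. A count of 0 allows up to 3 counts, which is 0.225 to 1.05 CPM at these depths, for counting error only. The 2 embryos with the most Cat shared father 6, whose remaining embryo had none, and these 2 embryos carried 91 of the 106 counts. The fitted log2 fold change was 2.05 ± 1.70 SE (adjusted p = 0.965, edgeR). It was 5.25 ± 2.97 SE in DESeq2 and 1.104 in limma-voom, and the reason for this gap was not tested. Without any of embryos 1-2, 6-1 and 6-2, Cat was below the count filter. Pooled over embryos, the ratio of Parg(110) to WT was 6.94 (95% counting interval 3.93 to 13.2), which leaves out the spread between embryos.

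The glutathione peroxidases reduce peroxides with glutathione, Gpx1 mainly hydrogen peroxide and Gpx4 the lipid hydroperoxides of membranes. Gpx1 (chr9:108241607-108242671, plus strand) was at 3.75 to 40.7 CPM with a median of 10.9 CPM in WT embryos. It was at 1.82 to 28.2 CPM with a median of 6.54 CPM in Parg(110) embryos. The ranges covered each other almost fully, and the log2 fold change was -0.40 ± 0.65 SE (95% interval -1.67 to 0.87, adjusted p = 0.979, edgeR). The WT mean of 13.5 ± 10.97 CPM leaned on embryo 3-2 at 40.7 CPM, and the log2 fold change was 0.01 without that embryo and 0.07 without father 3.

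Gpx4 (chr10:79509911-79519184, plus strand) was at 0.140 to 25.0 CPM with a median of 2.59 CPM in WT embryos. In Parg(110) embryos it was at 0 to 12.1 CPM with a median of 2.18 CPM. The means of 7.94 ± 9.32 and 2.98 ± 3.74 CPM came from like medians, with embryos 3-1 and 1-3 above 20 CPM in the WT group. The log2 fold change was -1.39 ± 1.04 SE (95% interval -3.42 to 0.65, adjusted p = 0.943, edgeR). It was -2.10 without embryo 8-3 and -2.20 without father 8, and -0.95 without embryo 3-1. A second Gpx4 transcript, NM_001037741, had the same 200 counts in the Parg(110) group and 425 in place of 517 in the WT group (log2 fold change -1.10 ± 1.04 SE, adjusted p = 0.966). The authors left out reads that mapped to several places, and the effect on Gpx4 was not tested. Of all stretches of 50 bases in its coding sequence, 74.7% were found elsewhere in the mm9 genome too. For Sod1 this share was 32.9%, for Prdx1 27.8%, for Prdx2 25.5% and for Txn1 9.3%, and for the coding sequences of Sod2, Cat, Gpx1, Gclc and Nfe2l2 it was 0%.

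**Figure D2:**
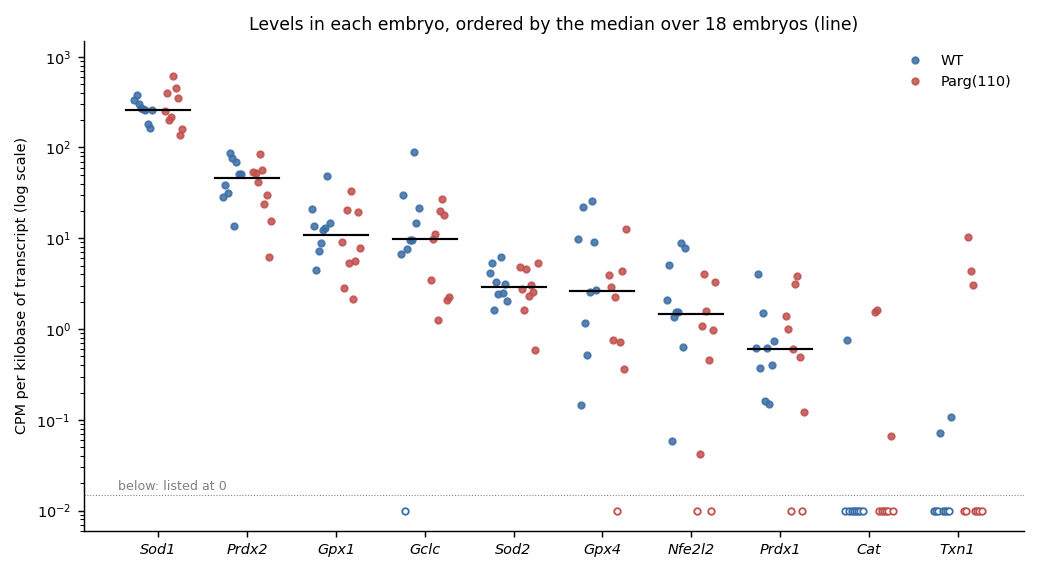
CPM per kilobase of transcript on a log scale in each embryo, WT in blue and Parg(110) in red, with the transcripts ordered by their median over 18 embryos (line). Open circles under the dotted line are embryos listed at 0. Sod1 and Prdx2 stand above the rest, the 6 transcripts from Gpx1 to Prdx1 overlap, and Cat and Txn1 have a median of 0.

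The peroxiredoxins are abundant thiol enzymes that remove hydrogen peroxide and need thioredoxin to be restored. Prdx2 (chr8:87493486-87498733, plus strand) was at 20.3 to 130 CPM with a median of 76.8 CPM in WT embryos. Prdx2 was at 9.41 to 129 CPM with a median of 61.8 CPM in Parg(110) embryos. The means were 74.4 ± 36.2 and 60.9 ± 36.8 CPM and the log2 fold change was -0.28 ± 0.42 SE (95% interval -1.10 to 0.54, adjusted p = 0.979, edgeR). The embryos of father 8 had 44.9, 9.41 and 23.5 CPM, and without father 8 the log2 fold change was 0.10. The embryos of father 6 had 81.5, 77.8 and 61.8 CPM and those of father 7 had 129, 84.8 and 35.8 CPM.

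Prdx1 (chr4:116358149-116373427, plus strand) was at 0.347 to 9.23 CPM with a median of 1.40 CPM in WT embryos. In Parg(110) embryos it was at 0 to 8.88 CPM with a median of 1.39 CPM, and 2 embryos (6-3 and 8-2) had no count. The log2 fold change was 0.31 ± 1.14 SE (95% interval -1.93 to 2.55, adjusted p = 1.00, edgeR), and its sign turned to -0.90 without father 7, to -0.04 without father 3 or embryo 7-2, to -0.15 without embryo 7-3 and to -0.48 in limma-voom. Among the 45 pairs of members, Prdx1 and Sod1 had the highest rank correlation over the 18 embryos. Spearman's rho of log2(CPM + 1) was 0.749 and Pearson's r 0.783, and the next highest rho of any pair was 0.474. Without the 2 embryos farthest from the median of Sod1 (7-2 and 8-2), r was 0.698 and rho 0.659. Within the WT group rho was 0.50 and within the Parg(110) group 0.87 (n = 9 each). Embryos share libraries of different depth, amplification and father, the pair was picked as the highest of 45, and the values are a description only.

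NRF2 with a small MAF partner binds the antioxidant response element, whose core is TGACNNNGC, and the promoters of the members were searched for it to show the letters that lie near their starts. In the 12 windows of 9 members (250 bases before to 50 after a RefSeq gene start, GRCm38.p6, both strands), Sod1, Prdx1 and Nfe2l2 itself held 1 match each and the other 6 held none. Gclc was not searched. Over all 27025 genes with such a window 14% held the core, and over all 32851 windows 12.4%. The matches are shown 5′ to 3′ on the strand that reads as the core, with 10 bases on each side and the core in capitals. The Sod1 site (chr16:90220696-90220724) and the Prdx1 site (chr4:116685456-116685484) read on the minus strand, opposite to the gene, and the Nfe2l2 site (chr2:75704885-75704913) reads on the minus strand with its gene.
Sod1: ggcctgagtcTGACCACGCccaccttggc
Prdx1: ctacgggggaTGACTCAGCgctttccctg
Nfe2l2: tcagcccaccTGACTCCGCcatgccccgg
The core of Prdx1 also starts with TGACTCA, the site of AP-1 factors. A match of letters is a description and does not show that a factor binds there, and the counts of these 3 transcripts differed widely, with medians over 18 embryos of 262, 0.608 and 1.45 CPM per kilobase.

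Txn1 encodes thioredoxin, the small protein that restores oxidized peroxiredoxins, and it had the smallest p-value of the 10. Txn1 (chr4:57956245-57969283, minus strand) had 2 counts in all WT embryos together, 1 in 2-1 and 1 in 3-3. In the Parg(110) group it had 117 counts in 6-3 (10.7 CPM), 23 in 7-1 (4.56 CPM), 30 in 7-2 (3.20 CPM) and 0 in the other 6 embryos. The 3 embryos with the transcript had levels above the limit that a count of 0 allows in any other embryo, and embryos of the same fathers had none. The log2 fold change was 5.74 ± 1.75 SE with an unadjusted p-value of 0.00316 and an adjusted one of 0.334 (edgeR). That fit depends on its prior count. The pooled counts were 170 and 2, and the ratio of the pooled CPM (2.49 over 0.0278) was 89.7. Its 95% counting interval of 24.4 to 747 leaves out the spread between embryos. The exact permutation of embryos gave p = 0.206, and 3 of 9 Parg(110) embryos showed the direction. In all, 18 transcripts (0.117%) had at most 1 count in each WT embryo and at least 10 in 3 or more Parg(110) embryos, and 91 (0.593%) had the opposite pattern. Both counts follow a pattern set after Txn1 was seen. The summed cumulus and granulosa markers were at 14.2 CPM in 6-3, 4.75 CPM in 7-1 and 5.66 CPM in 7-2, and at 11.7 and 11.2 CPM in embryos 1-1 and 7-3, which had no Txn1. Their part in the Txn1 counts was not tested. Leaving out any of embryos 6-3, 7-1 and 7-2 left Txn1 below the count filter, and in limma-voom its log2 fold change was 1.87.

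**Figure D3:**
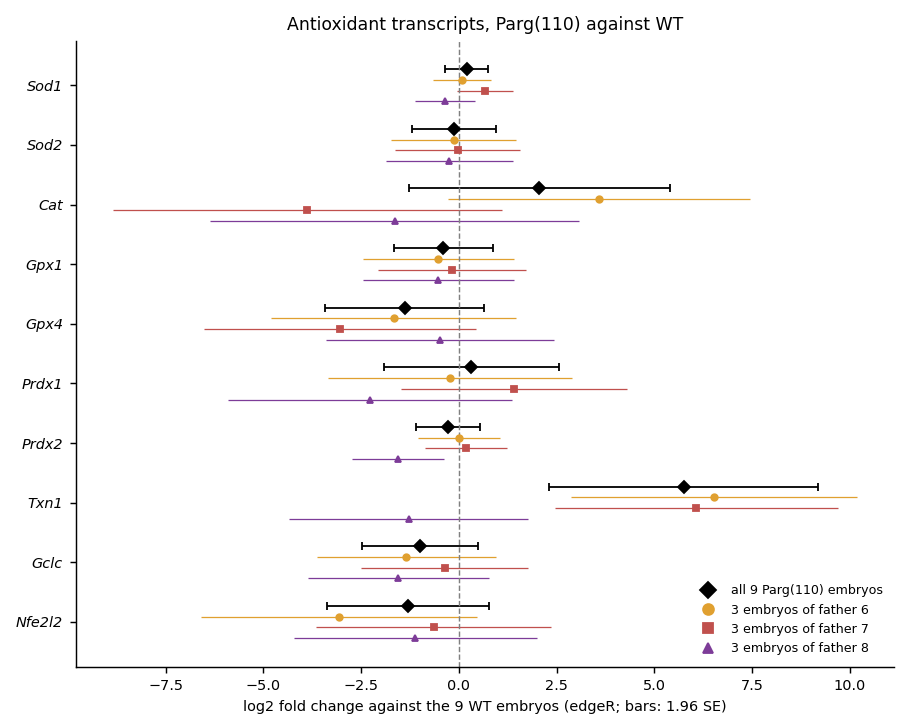
Log2 fold change of each antioxidant transcript against the 9 WT embryos from edgeR, for all 9 Parg(110) embryos (black diamonds) and for the 3 embryos of father 6, 7 or 8, with bars for 95% intervals. The bars of 9 transcripts cross 0 in the comparison of all embryos and Txn1 lies at 5.74. Fitted values for fathers with 0 counts, such as Cat in father 7 and Txn1 in father 8, depend on the prior count.

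Gclc, the catalytic subunit of the enzyme that limits glutathione synthesis, varied more than the other abundant members. Gclc (chr9:77602342-77642292, plus strand) was at 0 to 305 CPM with a median of 32.9 CPM in WT embryos. Gclc was at 4.36 to 91.6 CPM with a median of 33.5 CPM in Parg(110) embryos. The medians lay within 1 CPM of each other, while the WT mean of 71.7 ± 92.6 CPM was set by embryo 3-1 at 305 CPM and the Parg(110) mean was 35.9 ± 31.6 CPM. The log2 fold change was -0.99 ± 0.75 SE (95% interval -2.47 to 0.49, adjusted p = 0.947, edgeR). It was -0.25 without embryo 3-1, -0.03 without father 3 and -0.20 in limma-voom. Embryo 1-3 had no Gclc count among 6938558, which allows up to 0.432 CPM. The other 2 embryos of that father had 23.2 and 102 CPM. The coefficient of variation over 18 embryos was 129%, the median among 3004 transcripts within 2-fold of its mean was 63.1%, and 94.2% of them had a lower one.

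Nfe2l2 (chr2:75513570-75542698, minus strand) encodes NRF2. It was at 0.144 to 21.7 CPM with a median of 3.86 CPM in WT embryos. In Parg(110) embryos it was at 0 to 9.90 CPM with a median of 2.44 CPM, and embryos 6-1 and 8-1 had no count. The 3 highest values of all (21.7, 19.4 and 12.6 CPM) were in WT embryos 3-1, 3-3 and 1-2, and the rest of the ranges overlapped. The means were 7.95 ± 7.94 and 3.14 ± 3.61 CPM, with a log2 fold change of -1.30 ± 1.06 SE (95% interval -3.37 to 0.77, adjusted p = 0.962, edgeR). It was -2.04 in limma-voom, -0.62 without father 3 and -0.85 without father 6. The exact permutation gave p = 0.126 over embryos and 0.2 over fathers, the smallest of the 10 in both.

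Per kilobase of transcript, the order of the median levels over the 18 embryos was Sod1 (262 CPM per kilobase), Prdx2 (46.2), Gpx1 (10.7), Gclc (9.71), Sod2 (2.899), Gpx4 (2.63), Nfe2l2 (1.45), Prdx1 (0.608), then Cat and Txn1 at a median of 0. Sod1 was above Prdx2 in 18 of 18 embryos and Prdx2 above Gpx1 in 17. The spread covered most other steps, with Gpx1 above Gclc in 10, Gclc above Sod2 in 14, Sod2 above Gpx4 in 10, Gpx4 above Nfe2l2 in 10 and Nfe2l2 above Prdx1 in 11 of 18 embryos. Per kilobase of coding sequence, Gclc and Sod2 came before Gpx1, and Prdx1 came before Nfe2l2. Counted over the stretches of 50 bases found once in the genome, Gpx4 came before Sod2. Sod1 was 19.6% to 71.1% of the summed CPM of the 10 members in WT embryos and 44.4% to 69.7% in Parg(110) embryos. The summed CPM was 364 ± 104 in WT and 329 ± 140 in Parg(110) embryos.

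The embryos of each Parg(110)-/- father were also compared with the 9 WT embryos, which the 3 comparisons share. For father 6, 7 and 8 alike, 0 of 10 members had an adjusted p-value below 0.1 (edgeR), where 0% of all transcripts passed. DESeq2 also called 0 members in each, where 0.959%, 2.18% and 1.8% of all transcripts passed. In edgeR an unadjusted p-value below 0.05 was found for 1 member per father, where 6.44%, 8.4% and 7.7% of all transcripts had one. For father 6 it was Txn1 (log2 fold change 6.52 ± 1.87 SE, adjusted p = 0.744), with 117 counts in embryo 6-3 and 0 in 6-1 and 6-2. For father 7 it was also Txn1 (6.08 ± 1.84 SE, adjusted p = 0.464), with 23 counts in 7-1, 30 in 7-2 and 0 in 7-3. Txn1 met the count filter through embryos 6-3, 7-1 and 7-2 alone, so both results come from the embryos that let it be tested. For father 8 it was Prdx2 (-1.55 ± 0.60 SE, adjusted p = 0.617), and the values of Prdx2 for fathers 6 and 7 were 0.00 ± 0.54 and 0.18 ± 0.53. In DESeq2 an unadjusted p-value below 0.05 was also found for 1 member per father, where 7.47%, 10.1% and 9.49% of all transcripts had one, but for other members with fathers 6 and 7. It was Nfe2l2 for father 6 (-3.10 ± 1.37 SE, adjusted p = 0.445 in DESeq2), Gpx4 for father 7 (-3.02 ± 1.35 SE, adjusted p = 0.347) and Prdx2 for father 8 (-1.50 ± 0.53 SE, adjusted p = 0.164). Libraries of father 8 held 3560501 to 7191377 counts, those of father 7 held 4390779 to 9367261 and those of father 6 held 9570846 to 12497060. The summed stored oocyte markers of the embryos of father 8 were 1391, 1715 and 1125 CPM. Embryos of other fathers had like sums, with 1486 CPM in 7-3, 1529 in 1-3, 1649 in 1-1 and 1772 in 3-3. Prdx2 in those embryos was at 35.8, 47.6, 42.7 and 77.1 CPM. By depth, embryo 2-3, with the lowest total of all (2852858 counts), had Prdx2 at 20.3 CPM, the lowest of the WT embryos. Embryos 1-2, 1-3, 3-1, 7-1 and 7-3, with totals inside the range of father 8, had 57.45, 47.6, 104, 129 and 35.8 CPM. The part of depth and of the oocyte sums in the Prdx2 values was not tested.

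**Figure D4:**
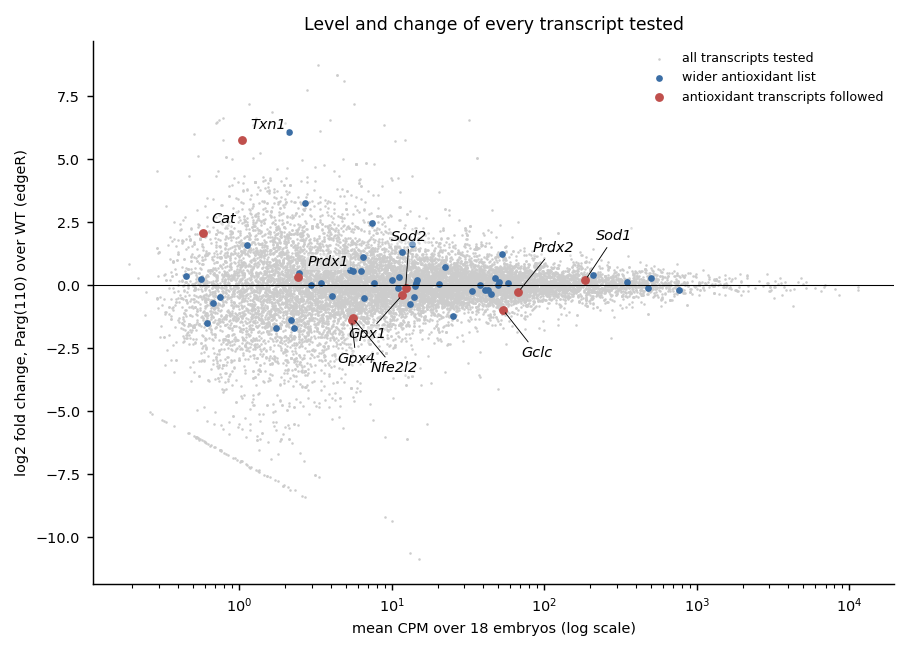
Mean CPM over 18 embryos (log scale) against the log2 fold change of Parg(110) over WT for the 15333 transcripts tested (grey), the 50 tested genes of the wider antioxidant list (blue) and the 10 members (red). The spread of the grey points narrows with level, and the members lie inside it with Txn1 near its upper edge.

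A wider list of antioxidant genes, from the families and the pathway of the members, held 75 genes. Of these 74 had a row, 50 were tested, and 0 passed an adjusted p-value of 0.1 in edgeR in either direction. With 1 transcript per gene, the most abundant, there were 3 at an unadjusted p-value below 0.05, all with a higher estimate in Parg(110) embryos, which is 6% of the 50, beside 5.8% of all transcripts. A second, less abundant transcript of Sesn1 was also below 0.05 in edgeR, with a lower estimate in Parg(110) embryos (log2 fold change -2.87 ± 0.96 SE). Over the 50 genes, the estimate was above 0 for 30 and below 0 for 20, with a median of 0.08. DESeq2 called 1 (0.248% of all transcripts), Mgst3, a microsomal glutathione transferase (log2 fold change 6.42 ± 1.53 SE, adjusted p = 0.0267), and in edgeR its adjusted p-value was 0.334. Mgst3 reached 10 counts in 4 Parg(110) embryos and 0 WT embryos, so that it met the count filter through the group in which it was higher, and without father 8 it did not meet it. Mgst3 had 3 counts in WT embryo 1-2 and none in the other 8. In Parg(110) embryos it had 255 counts, spread over 8 of 9, with a median of 0.99 CPM and highest values of 15.9 CPM in 8-2 and 13.6 CPM in 8-3. The ratio of the pooled CPM (3.74 over 0.0416) was 89.7 (95% counting interval 30.4 to 438), which leaves out the spread between embryos.

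The controllers of NRF2 gave the other 2. Keap1, whose product holds NRF2 back, was at 0.347 to 4.79 CPM with a median of 2.03 CPM in WT embryos (NM_016679, the most abundant of 4 transcripts). In Parg(110) embryos it was at 0.228 to 45.2 CPM with a median of 7.47 CPM, and 6 of the 9 lay above every WT embryo. The log2 fold change was 2.48 ± 0.88 SE with an adjusted p of 0.525 in edgeR, and the adjusted p was 0.141 in DESeq2. The other 3 Keap1 transcripts shared identical counts and gave 2.31 ± 1.08 SE (adjusted p = 0.839). Maff, a small MAF protein that pairs with NRF2, was at 0 to 1.80 CPM in WT and 0 to 25.0 CPM in Parg(110) embryos (log2 fold change 3.27 ± 1.44 SE, adjusted p = 0.804 in edgeR). Embryo 7-1 held 126 of the 248 Maff counts of the Parg(110) group. The log2 fold change of Maff was 2.25 without embryo 7-1 and 2.45 without father 7, and its unadjusted p-value was no longer below 0.05 without that embryo or without father 1, 2 or 7. The 3 genes with the smallest p-values and a lower estimate were Sesn1, a sestrin (-1.25 ± 0.71 SE, adjusted p = 0.894), Msrb1, which reduces oxidized methionine (-0.77 ± 0.57 SE, adjusted p = 0.943) and Glrx, a glutaredoxin (-1.69 ± 1.44 SE, adjusted p = 0.966).

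**Figure D5:**
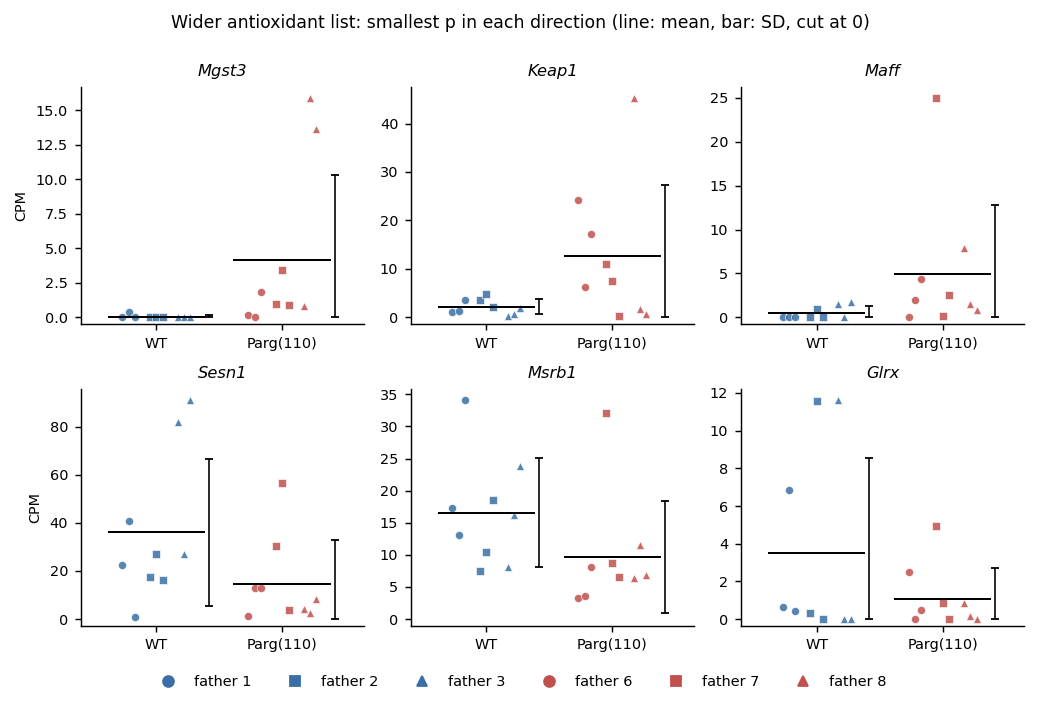
CPM in each embryo for the 6 genes of the wider list with the smallest p-values in each direction, WT in blue and Parg(110) in red, with a symbol for each father, the mean as a line and the SD (n = 9) as a bar cut at 0. Keap1 reaches 45.2 CPM in a Parg(110) embryo and at most 4.79 CPM in WT, and no gene of the 6 passed the threshold in edgeR.

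By group of function, no gene of the wider list was called by edgeR. Of the 7 tested genes for glutathione synthesis and recycling 5 had an estimate above 0 (median 0.27), of the 7 tested glutathione transferases 7 (median 0.60), of the 8 tested thioredoxin and glutaredoxin genes 6 (median 0.08) and of the 10 tested NRF2 controllers and targets 5 (median -0.02). Of the 7 tested genes of peroxiredoxins and sestrins 3 had an estimate above 0 (median -0.00), and of the 9 others, such as ferritins and metallothioneins, 3 (median -0.24). The median of all transcripts was -0.02. Of the tested transferases, Gsto1 was counted in 4 embryos and Gstp2 in 6, and Mgst3 met the count filter through Parg(110) embryos alone. Among untested transferases with counts, the mean was lower in Parg(110) embryos for Gsta2 (2.37 CPM in WT, 0 in Parg(110)) and Gstk1. For Gstm1 and Gstm2 it was higher. Glutathione peroxidases other than Gpx1 and Gpx4 were counted in all embryos only for Gpx3, at 14.2 CPM in WT and 14.8 CPM in Parg(110) embryos. In all 18 embryos 8 listed genes were at 0, namely Sod3, Gpx5, Srxn1, Gsta1, Gsta3, Gstt1, Mgst1 and Mgst2. Levels of genes known as NRF2 targets differed widely from gene to gene, from Nqo1 at 0.884 and 0.625 CPM and Hmox1 at 0.825 and 0.521 CPM to Slc7a11 at 9.34 and 10.8 CPM and Txnrd1 at 16.9 and 28.0 CPM in WT and Parg(110) embryos.

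For the 4 members counted in all 18 embryos, transcripts of other genes with the most alike pattern were sought among 7247 transcripts with a mean of at least 10 CPM, by Spearman's rho of log2(CPM + 1) over the embryos. For Sod1 they were Glg1 (0.752) and Fyco1 (0.750), for Sod2 Sde2 (0.789) and Csnk1e (0.699), for Gpx1 Cdk9 and Top2a (0.719 each) and for Prdx2 Ccdc181 (0.816) and Pxdn, a peroxidasin (0.796). These are the highest of many values over 18 embryos that share fathers and differ in depth, and they are a description only.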

How the data were processed

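RNA of single 2-cell embryos was amplified with the WT-Ovation One-Direct kit and sequenced on an Illumina instrument. The authors mapped reads to mm9 with RUM, allowing up to 1 mismatch, and left out reads with more than 1 place. The deposited values are raw counts, 1 per RefSeq transcript and embryo. They tested with DESeq (1.10.0 per the submitters' processing notes). The strand setting is not given in the sources used here. Amplification from 1 embryo can lose rare transcripts and widen the spread.

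Symbols came from a RefSeq table (GRCm38.p6), which named 97.4% of rows. CPM used the file total. Of the rows, 5323 shared identical counts with another. TMM factors scaled the counts. The test was edgeR's quasi-likelihood F (edgeR 4.0.16, R 4.3.3), on transcripts reaching 10 counts in 3 embryos or more, with Benjamini-Hochberg adjustment over all transcripts and a threshold of 0.1. SE was taken as |log2 fold change|/√F, and 95% intervals are normal. Alternatives used DESeq2 1.42.0, limma 3.58.1 and the settings in the closing section. The edgeR test was also run on simulated counts of 9 against 9 embryos, with 200 transcripts changed 4-fold. It recovered 33% of them, 98% of the 200 had the right sign, and 10.8% of its calls were false. That recovery is over transcripts of all levels, simulated with the WT spread and independent embryos. Absence of a call alone thus does not exclude a change of that size. For Sod1, Sod2, Gpx1 and Prdx2 the 95% intervals, which take embryos as independent, lay inside a 4-fold change in either direction. Embryos of 1 father are not independent, and p-values over embryos measure the spread between these embryos. In limma-voom the fitted correlation within a father was -0.015 over all transcripts, so that fit treated embryos of 1 father as nearly independent. Embryos of the same number did not vary together (median correlation 0.002), so numbers were not taken as pairs.

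Members and lists were chosen with earlier results of these data known. The genes named are the 10 members, the genes of the wider list called by edgeR (since there were none, those 3 above and those 3 below 0 with the lowest p), and the 2 most alike transcripts of each member counted in all embryos. Genes outside that rule (markers, Gpx3, Nqo1, Hmox1, Slc7a11, Txnrd1, further glutathione transferases and those at 0) were named after their values were seen. Counting intervals are Clopper-Pearson, and like the 3-count limit they cover counting error only, since amplified reads are not independent molecules. Positions are from GENCODE vM1. Lengths for values per kilobase are those of the lowest-numbered GENCODE vM1 coding transcript of each gene. They may differ from the lengths of the RefSeq transcripts counted.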

Additional observations from a re-analysis of the deposited data

Results flagged for a closer look

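In 6 of the 20 groups of 9 embryos examined (10 members in each genotype), the highest embryo stood far from the rest, with a gap to the next over 0.493 of the range (Dixon's 95% value for 9). Chance flags about 1 group in 20 where values are normal, which these CPM values are not. Over all transcripts tested, the highest embryo stood this far out in 33.4% of 30666 groups, so that the 6 of 20 were near that share. In the WT group these were embryo 1-2 for Cat (1.957 CPM, all others at 0) and for Prdx1 (9.23 CPM, next 3.44), embryo 3-2 for Gpx1 (40.7 CPM, next 17.6) and embryo 3-1 for Gclc (305 CPM, next 102). In the Parg(110) group they were embryo 8-3 for Gpx4 (12.1 CPM, next 4.21) and embryo 6-3 for Txn1 (10.7 CPM, next 4.56). The flagged embryos had totals between 5759779 and 10895679 counts.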

How the results depend on the processing

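No member passed the threshold under any of the 33 other settings or at an adjusted p-value below 0.05. Of 317 log2 fold changes of members under the other settings, 305 kept their sign and 12 turned. One of these came from another test, Prdx1 at -0.48 in limma-voom, where the median of all transcripts lay at -0.19. The other 11 came from leaving out 1 father or embryo, which gave ranges of -0.12 to 0.43 for Sod1, -0.32 to 0.0284 for Sod2, -0.79 to 0.0703 for Gpx1, -0.90 to 1.08 for Prdx1 and -0.57 to 0.10 for Prdx2. Txn1 came nearest to the threshold without the filter on low counts (adjusted p = 0.104), and its adjusted p-value was 0.336 to 1.00 under the others that gave one. With counts summed per father it was 1.00 and with the embryo number as a replicate block 0.592, and the block made no call. At 10 counts in 9 embryos, Cat, Prdx1 and Txn1 were not tested. DESeq2 called 1 gene of the wider list and 38 of all transcripts (12 up, 26 down), and edgeR called 0 and, without 1 father or embryo, 0 to 5 of all transcripts (5 without father 6, 2 without embryo 6-1 and 2 without 7-1). The cause was not tested. A count of 0 allows up to 3 counts, 0.225 to 1.05 CPM at these depths.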

Other observations

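Some genes of the wider list had a higher mean CPM than the members other than Sod1, and these were picked after their values were seen. Their CPM was not divided by transcript length, so it does not order the genes by abundance. Fth1, the heavy chain of the iron store ferritin, was at 821 CPM in WT and 706 CPM in Parg(110) embryos. Ggct, of glutathione turnover, was at 454 and 553 CPM, and Nfe2l1, a relative of Nfe2l2, at 501 and 454 CPM. Cul3, which works with KEAP1, was at 332 and 364 CPM, and G6pdx, which supplies NADPH, at 183 and 238 CPM. None of the 5 passed the threshold in edgeR (adjusted p of 0.966 or more for each). All 5 were counted in every embryo.

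The second transcript of Sesn1, NM_001013370, had 1577 counts in WT and 227 in Parg(110) embryos (log2 fold change -2.87 ± 0.96 SE, adjusted p = 0.431 in edgeR), while the most abundant one had 2541 and 1071. Its unadjusted p-value was also below 0.05, in the opposite direction to Mgst3, Keap1 and Maff. The difference between the transcripts was not tested.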
